A study of Homo sapiens with 6 samples.

Results

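The neural subtype homeobox and proneural bHLH factors examined here are 39 human genes taken by symbol from a fixed list, out of 27672 genes in a table of RNA-seq counts. They comprise homeobox and OLIG genes that pattern neural progenitors from dorsal to ventral, LIM, MNX and POU homeobox genes of motor, sensory and interneuron subtypes, proneural bHLH genes, and 4 genes of early neurons. Polyadenylated RNA was sequenced from H9 cells, a human embryonic stem cell line, in 2 conditions with 3 biological replicates each. The names of all 6 libraries carry WT, for wild type. Undifferentiated hESCs (D0) were kept, as the labels give it, in DEF medium with bFGF at 30 ng/ml and Noggin at 10 ng/ml on fibronectin, whereas the study's methods name TESR medium on Geltrex. NMP-L cells (D3), cells resembling the neuromesodermal progenitors of the caudal epiblast, were made from the same line over 3 days in N2/B27 basal medium with bFGF at 20 ng/ml and CHIR99021, a GSK3 inhibitor that activates Wnt signalling, at 3 µM. The methods also add Noggin and SB431542, inhibitors of BMP and TGFβ signalling, from the second day, which the labels do not mention. All 6 libraries came from 1 cell line, and the conditions differ in medium and time as well as in CHIR99021, so these cannot be told apart.

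The libraries held between 19454543 and 23036426 expected counts, which are read counts that RSEM estimates by dividing ambiguous reads between genes, and no library stood apart. The labelled cell types could be recognised from their markers. All 6 pluripotency markers tested were lower in NMP-L cells (NANOG, log2 fold change -2.59), and 6 of 7 tested caudal epiblast markers were higher (T, also known as brachyury, had 0, 0 and 2 counts in hESCs and 537, 293 and 629 in NMP-L cells). SOX2, the remaining one tested, did not pass the test. Markers of other cell types also moved with condition. Levels are given in CPM, counts of a gene per 1000000 counts of the library, with the library totals scaled by TMM. The summed level of 6 node and notochord markers was 25.01 to 27.6 CPM in hESCs and 47.7 to 83.2 CPM in NMP-L cells. Of these markers, 3 of the 3 tested were higher, and SHH was at 0 in all hESC libraries. The summed level of 8 neural crest and border markers was 27.2 to 31.9 CPM in hESCs and 5.67 to 6.65 CPM in NMP-L cells, with 2 of the 4 tested lower and 1 higher, TFAP2B at 0 in all 6 libraries and PAX3 at most 2 counts. The 8 endoderm markers summed to 5.71 to 6.89 CPM in hESCs and 8.77 to 10.8 CPM in NMP-L cells (SOX17 had at most 1 count). The 6 presomitic mesoderm markers summed to 21.7 to 26.4 CPM in hESCs and 12.4 to 14.1 CPM in NMP-L cells. They did not move together, with 2 of the 4 tested lower and 1 higher (log2 fold change 5.66). The 5 intermediate mesoderm markers summed to under 1.4 CPM in every library. The part of these cells in the values given next was not tested. In such bulk samples, fewer cells that express a gene and less RNA per cell cannot be told apart.

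In the developing spinal cord and hindbrain, opposing signals from dorsal and ventral sources divide the progenitors into domains, each marked by a combination of homeobox and bHLH repressors such as PAX6, DBX, NKX6, IRX and OLIG proteins. Proneural bHLH factors of the Neurogenin, NeuroD and Atonal families bind E-boxes with E proteins and drive progenitors out of the cell cycle towards a neuronal fate. LIM and POU homeobox factors then fix the subtype of the new neuron, and cytoskeletal and RNA-binding proteins such as doublecortin, β3-tubulin and the ELAVL (Hu) proteins accompany differentiation. NMP-L cells precede these steps in the spinal cord lineage, so the comparison asks how much RNA of this programme the progenitors and the hESCs already hold.

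Many developmental factor genes lie at CpG-rich promoters, of the kind that polycomb complexes bind. RefSeq promoter windows on GRCh38.p14 were given for 29 of the 39 genes, and only the 250 bases upstream of the first listed start were used. CpG content, measured as the observed number of CpG dinucleotides over the number expected from the C and G content, had a median of 0.826 in these 29 windows and of 0.556 in all 27305 promoters of the table. The ratio was at least 0.6 in 24 of the 29 (82.8%), against 47.4% of all promoters. All 39 genes are protein coding, whereas the promoters of the table were not filtered by gene type. Windows of LHX4 (chr1:180230014-180230263, plus strand), POU3F1 (chr1:38046794-38047043, minus strand), OLIG3 (chr6:137494395-137494644, minus strand) and NHLH1 (chr1:160366821-160367070, plus strand) are printed because they run from CpG-rich to CpG-poor among genes with measurable counts. Each is written 5′ to 3′ on the gene's strand with every CpG in capitals.
LHX4: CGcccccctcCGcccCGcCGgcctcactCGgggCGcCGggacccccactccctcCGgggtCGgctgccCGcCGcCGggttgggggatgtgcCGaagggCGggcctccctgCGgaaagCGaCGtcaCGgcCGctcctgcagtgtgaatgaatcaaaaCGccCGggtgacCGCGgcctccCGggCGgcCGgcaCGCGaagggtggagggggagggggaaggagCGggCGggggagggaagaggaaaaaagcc
POU3F1: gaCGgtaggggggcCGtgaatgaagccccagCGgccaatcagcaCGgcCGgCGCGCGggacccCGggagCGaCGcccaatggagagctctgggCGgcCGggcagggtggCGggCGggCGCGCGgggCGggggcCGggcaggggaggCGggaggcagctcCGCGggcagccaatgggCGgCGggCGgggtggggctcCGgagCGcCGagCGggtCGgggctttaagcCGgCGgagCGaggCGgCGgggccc
OLIG3: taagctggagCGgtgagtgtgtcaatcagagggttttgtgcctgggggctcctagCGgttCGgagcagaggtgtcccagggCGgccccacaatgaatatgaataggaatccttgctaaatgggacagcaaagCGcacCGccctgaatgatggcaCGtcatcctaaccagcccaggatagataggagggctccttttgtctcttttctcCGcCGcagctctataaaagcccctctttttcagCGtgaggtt
NHLH1: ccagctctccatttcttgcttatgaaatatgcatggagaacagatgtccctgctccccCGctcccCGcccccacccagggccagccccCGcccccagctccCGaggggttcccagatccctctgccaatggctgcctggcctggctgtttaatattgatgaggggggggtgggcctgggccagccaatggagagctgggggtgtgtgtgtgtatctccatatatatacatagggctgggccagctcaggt
The LHX4 window holds 30 CpGs (ratio 0.857), that of POU3F1 36 (0.962), that of OLIG3 10 (0.551) and that of NHLH1 4 (0.173), which was the lowest ratio of the 29. The letters CTTTG, the core that TCF/LEF factors of the Wnt pathway recognise, were found on either strand in 11 of the 29 windows (37.9%) and in 42.2% of all promoters. The E-box letters CANNTG were found in 15 of the 29 (51.7%) and in 62.2% of all. Both shares were near or below those of promoters at large. The 29 windows were also richer in G and C (median 69.2%, against 58.0% of all promoters), which was not accounted for. A match to letters is not a bound site.

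Of the 39 genes, 12 (30.8%) had at most 3 counts in all 6 libraries, a detection floor that corresponds to 0.125 to 0.160 TMM-scaled CPM, and the same was true of 34.5% of all genes in the table. These were the progenitor homeobox genes DBX1, NKX6-1, NKX2-2 and NKX2-1, the proneural genes NEUROG1, NEUROG2, NEUROG3, NEUROD1 and NEUROD4, the LIM genes LHX9 and LMX1A, and POU3F3. NKX2-1, a ventral forebrain factor, and LHX9, a dorsal interneuron factor, had 0 counts in every library. The highest sum over the 6 libraries among the 12 was 8 counts, and any difference between conditions was not detectable in them at this depth. A further 9 genes (23.1%, against 9.46% of all genes) exceeded 3 counts in some library but were too low for the test, and 18 genes (46.2%, against 56.1% of all genes) were tested. The mean over all 6 libraries was under 1 TPM (transcripts of a gene per 1000000, corrected for length) in 26 of the 39 genes (66.7%) and in 47.9% of all genes. The 18 tested genes had a median of 1.49 TPM, compared with 14.3 TPM for all 15517 genes tested. Averaged over all 6 libraries, 2 of the 39 genes reached 10 TPM (TUBB3 and IRX2) and 1 more reached 5 TPM (POU3F1).

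**Figure D1:**
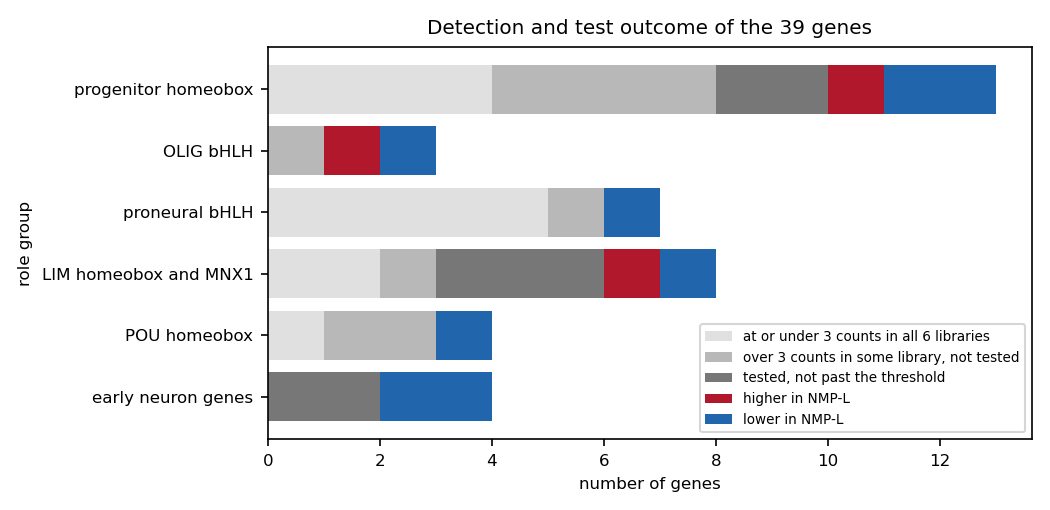
Bars show, for each group by role, the number of the 39 genes at or under 3 counts in all 6 libraries, above that in some library but not tested, tested without passing the threshold, and higher or lower in NMP-L cells. The proneural bHLH group has 5 of its 7 genes at the floor, whereas all 4 early neuron genes were tested.

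Among the genes that could be tested, more were lower than higher in NMP-L cells. With edgeR's quasi-likelihood test and a Benjamini-Hochberg adjusted p under 0.05 over all genes tested, 11 of the 18 passed, 3 of them higher (MNX1, OLIG1 and IRX4) and 8 lower (IRX1, IRX2, OLIG3, NHLH1, LHX5, POU3F1, TUBB3 and ELAVL3). Of all genes tested, 55.8% passed (29.1% higher and 26.7% lower), so the number of calls was near the background. The median log2 fold change was -0.37 over the 18 genes and 0.03 over all genes tested. MNX1 and OLIG1 passed the filter on low counts only through NMP-L cells and NHLH1 only through hESCs. A change of at least 2-fold was called for 6 of the 18 genes and for 18.6% of all genes tested, higher for 2 (9.38% of all) and lower for 4 (9.18% of all). Libraries of the conditions did not overlap in CPM for 12 of the 18 genes (3 higher and 9 lower) and for 61.6% of all genes tested. The split between higher and lower depended on the scaling. Scaling to GAPDH shifted the median over all genes by 0.56 on the log2 scale, and the split was then 5 higher and 6 lower. Relative to HPRT1 counts, with a shift of -0.30, it was 2 higher and 10 lower. In the TMM-scaled fit GAPDH itself was lower in NMP-L cells (log2 fold change -0.55, edgeR adjusted p = 1.4e-04). HPRT1 did not pass (log2 fold change 0.28, edgeR adjusted p = 0.069).

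**Figure D2:**
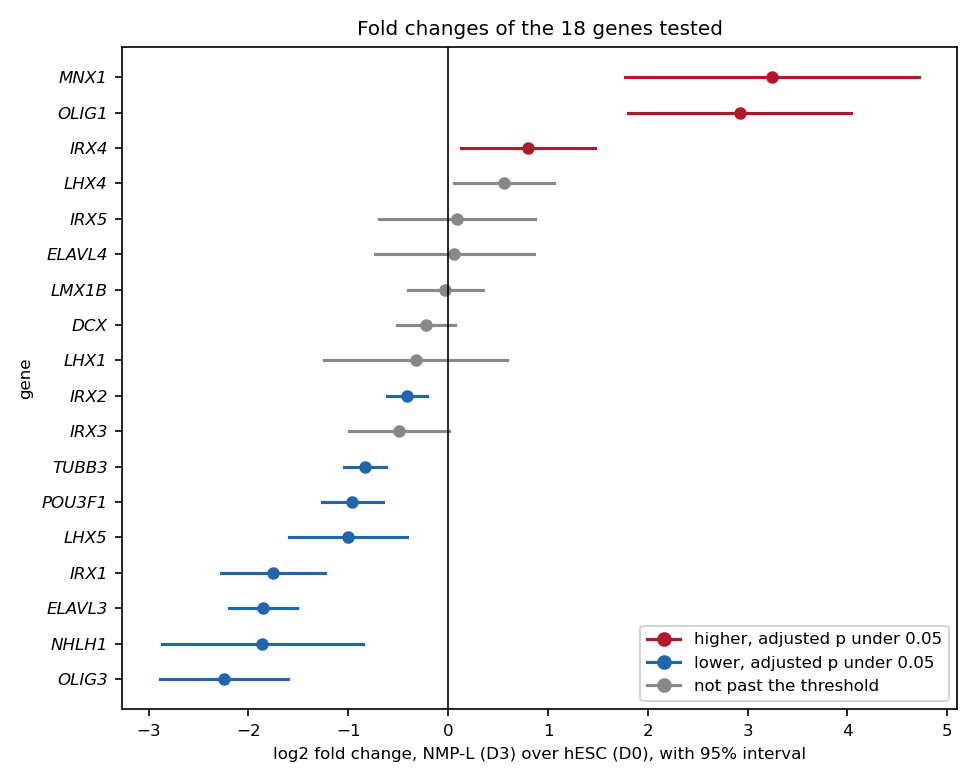
The log2 fold change of NMP-L cells over hESCs is plotted for the 18 tested genes, with its 95% interval as a line and the call as the colour. MNX1 and OLIG1, which passed the filter only through NMP-L cells, lie highest, at 3.25 and 2.92, and OLIG3 lies lowest at -2.24.

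PAX6, the homeobox gene that marks neural progenitors across most of the dorsoventral axis, was hardly detected in either condition. It had 3, 8 and 7 counts in hESCs and 1, 0 and 0 in NMP-L cells (0.312 ± 0.134 and 0.0150 ± 0.0259 CPM, SD, n = 3). All hESC libraries were above all NMP-L libraries, and the summed counts gave a level 21.1-fold lower in NMP-L cells, with an exact 95% interval of 3.33 to 879 that covers counting error only. PAX6 fell under the filter, and an exact two-sided permutation test gave p = 0.1, the smallest that 3 against 3 libraries allow. With no filter, the edgeR test gave a log2 fold change of -3.93 and an adjusted p of 0.0051 (43.3% of all genes passed in that fit). It lies on chromosome 11 (31806327 to 31839509, minus strand, GRCh37) and shares bases with ELP4 and the antisense RNA PAUPAR on the other strand, and no source states whether the counting used strand.

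The DBX and NKX genes of the intermediate and ventral progenitor domains had at most 18 counts in any library. DBX2, a gene of intermediate interneuron progenitors, had 0, 1 and 0 counts in hESCs and 5, 3 and 4 in NMP-L cells, 10.2-fold higher with a counting interval of 1.51 to 438. Its relative DBX1 stayed at the floor, with 0, 1 and 2 against 3, 1 and 1 counts. NKX6-2 had 9, 9 and 18 counts in hESCs and 5, 8 and 6 in NMP-L cells, 2.22-fold lower with a counting interval of 1.24 to 4.10. For both DBX2 and NKX6-2 the libraries did not overlap in CPM and the exact permutation test gave p = 0.1. With no filter the adjusted p of edgeR's test was 0.0426 for DBX2 and 0.0697 for NKX6-2. NKX6-1 and NKX2-2, which mark ventral domains, were at the floor, NKX6-1 with 0, 3 and 0 against 1, 1 and 1 counts and NKX2-2 with 0, 0 and 3 against 0, 1 and 0. Of the 9 genes above the floor that were not tested, 5 did not overlap between conditions (PAX6, NKX6-2 and ATOH1 lower, DBX2 and IRX6 higher), compared with 33.4% of all genes in this range.

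The Iroquois genes, homeobox factors that pattern the intermediate neural tube and several other tissues, gave most of the homeobox signal, and they did not move together. They lie in 2 clusters. IRX4, IRX2 and IRX1 are on chromosome 5, with 859 kb and 844 kb between neighbours, and IRX3, IRX5 and IRX6 on chromosome 16, with 644 kb and 390 kb between neighbours. IRX2 (chromosome 5, 2745959 to 2751791, minus strand) held between 89.0% and 91.5% of the summed IRX TPM in every library. Its counts were 1667, 1671 and 1766 in hESCs and 1624, 1243 and 1638 in NMP-L cells, or 65.1 ± 2.80 and 52.9 ± 6.60 TPM (SD, n = 3). IRX2 was modestly lower in NMP-L cells (log2 fold change -0.41, SE 0.09, 95% interval -0.62 to -0.21, edgeR adjusted p = 0.0027), a direction that turned relative to GAPDH counts (0.15, adjusted p = 0.289). IRX1 (3595946 to 3601517, plus strand), its neighbour, had 55, 78 and 69 counts in hESCs and 25, 16 and 29 in NMP-L cells. This drop was larger (log2 fold change -1.76, SE 0.24, 95% interval -2.28 to -1.23, edgeR adjusted p = 7.7e-05), and the libraries lay far apart.

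IRX4 (1877527 to 1887350, minus strand), at the other end of the same cluster and best known from the ventricle of the heart, rose. It had 16, 19 and 30 counts in hESCs and 52, 47 and 33 in NMP-L cells (1.13 ± 0.381 and 1.99 ± 0.527 CPM, SD, n = 3). The highest hESC library was above the lowest NMP-L library in CPM. The log2 fold change was 0.80 (SE 0.31, 95% interval 0.13 to 1.47, edgeR adjusted p = 0.043), a call that the exact permutation test did not share (p = 0.2) and that was lost in 8 of the alternative settings, among them DESeq2 (adjusted p = 0.0783), the fit with replicate number as a block (0.0710), and the fits without hESC replicate 1 (0.135) or 2 (0.130) or NMP-L replicate 1 (0.126) or 2 (0.117). The ratio of IRX4 to IRX1 within a library depends on scaling only through the 0.1 CPM added to each gene. It went from a mean of -1.58 in hESCs to 0.87 in NMP-L cells on the log2 CPM scale. The libraries did not overlap (exact permutation p = 0.1). This ratio holds the drop of IRX1 (log2 fold change -1.76) as well as the change of IRX4 (0.80). IRX1 thus exceeded IRX4 in all 3 hESC libraries and IRX4 exceeded IRX1 in all 3 NMP-L libraries in CPM.

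In the chromosome 16 cluster the levels were lower, and no gene passed the test. IRX3, a gene of the intermediate neural tube, had 29, 40 and 39 counts in hESCs and 30, 28 and 32 in NMP-L cells, with no overlap in CPM but an adjusted p of 0.090 in the edgeR test (log2 fold change -0.49, 95% interval -0.99 to 0.01). It passed the threshold relative to HPRT1 counts (-0.80, adjusted p = 0.0424) and changed sign relative to GAPDH counts (0.071, adjusted p = 0.774). IRX5, its partner in limb and heart patterning, had 8 to 11 counts in hESCs and 8 to 14 in NMP-L cells (log2 fold change 0.09, 95% interval -0.69 to 0.87, edgeR adjusted p = 0.85), an interval too wide to tell a difference. IRX6, the last gene of the cluster, had 1, 2 and 2 counts in hESCs and 10, 16 and 7 in NMP-L cells. It was 5.63-fold higher in NMP-L cells with a counting interval of 2.18 to 18.5, its lowest NMP-L library was above its highest hESC library, and p was 0.1 in the exact permutation test. IRX6 was not tested in the filtered fit, and with no filter its edgeR adjusted p was 0.0064. Of the 6 members of the family, counts came out fractional for all but IRX6, so some of their reads were shared with other features.

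**Figure D3:**
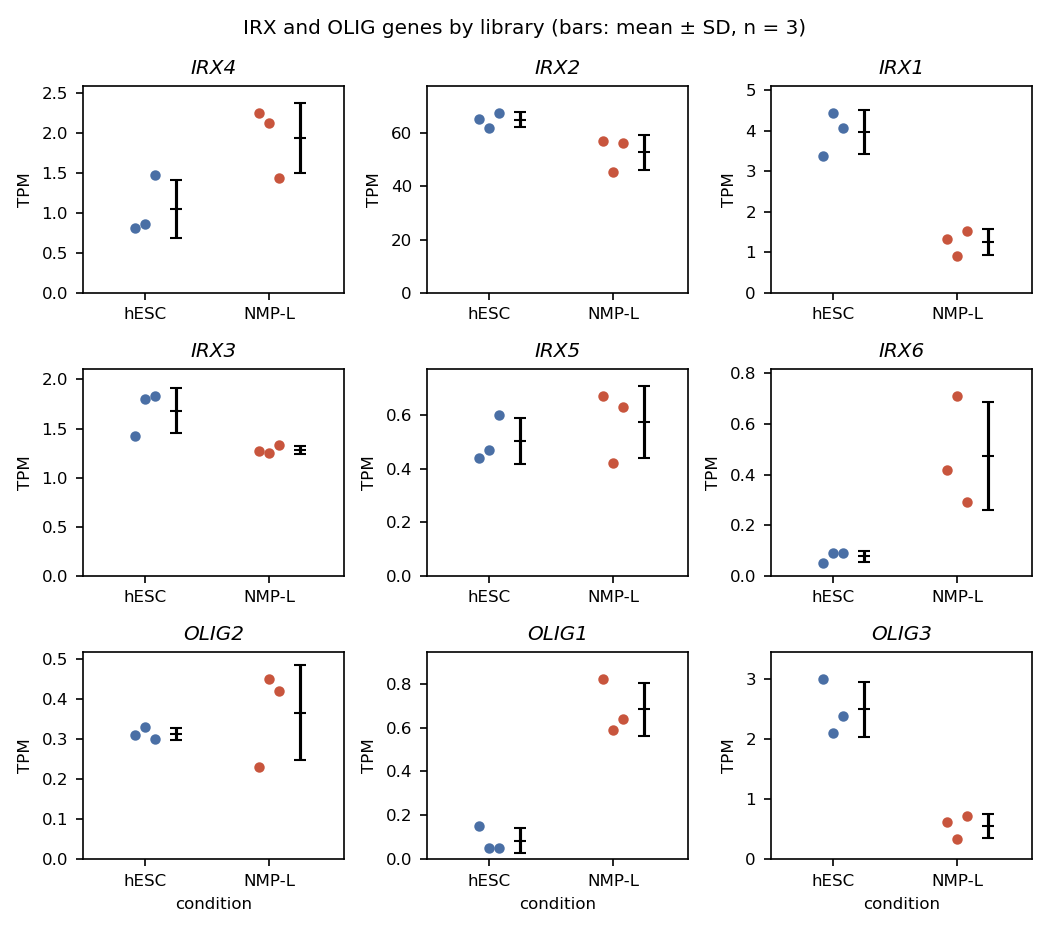
Points give the TPM of each library for the 6 IRX genes (upper and middle rows, in chromosomal order within each cluster) and the 3 OLIG genes (lower row), and the bars give mean ± SD, n = 3 per condition. IRX1, IRX2, IRX3 and OLIG3 are lower in all 3 NMP-L libraries, and OLIG1 and IRX6 are higher in all 3, at levels under 1 TPM.

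The OLIG genes encode bHLH repressors, of which OLIG2 specifies motor neuron and oligodendrocyte progenitors and OLIG3 acts in the most dorsal progenitors. OLIG3 (chromosome 6, 137813336 to 137815531, minus strand) had the lowest log2 fold change of the 18 tested genes. It had 58, 44 and 48 counts in hESCs and 14, 7 and 16 in NMP-L cells (2.49 TPM and 0.553 TPM on average), a log2 fold change of -2.24 (SE 0.29, 95% interval -2.88 to -1.60, edgeR adjusted p = 5.5e-05). OLIG1 moved the other way, with 3, 1 and 1 counts in hESCs and 19, 13 and 15 in NMP-L cells. It passed the filter only through NMP-L cells. The log2 fold change was 2.92 (SE 0.51, 95% interval 1.80 to 4.04, edgeR adjusted p = 4.9e-04), and the ratio of summed counts was 8.02-fold with a counting interval of 3.20 to 25.8. Without hESC replicate 1, which held 3 of its 5 hESC counts, the log2 fold change was 3.59. It was 2.66 without hESC replicate 2 or without hESC replicate 3.

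OLIG2, which lies 40.9 kb from OLIG1 on chromosome 21, did not go with it. Its counts were 7, 8 and 7 in hESCs and 6, 11 and 11 in NMP-L cells. They overlapped, and the ratio of 1.09 had a counting interval of 0.599 to 1.99 (exact permutation p = 0.9). The ratio of OLIG1 to OLIG2 within a library went from a mean of -1.41 in hESCs to 0.65 in NMP-L cells on the log2 CPM scale. OLIG1 was below OLIG2 in all 3 hESC libraries and above it in all 3 NMP-L libraries (exact permutation p = 0.1). An unnamed antisense gene overlaps both.

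Of the 7 proneural bHLH genes, only NHLH1 had enough counts for the test, and it was lower in NMP-L cells. The Neurogenins, which start neuronal differentiation in the spinal cord and sensory ganglia, and the NeuroD genes, which act after them, had between 0 and 3 counts in every library. NEUROG1 had 1, 0 and 0 counts in hESCs and 1, 0 and 2 in NMP-L cells, and NEUROG2 had 0 in each hESC library and 1, 0 and 1 in NMP-L cells. NEUROG3 and NEUROD1 were at 0 in all hESC libraries, with 3, 0 and 3 and with 2, 3 and 0 counts in NMP-L cells. Both conditions were at the floor for these genes, and no fold is given.

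ATOH1 and NHLH1 were the only proneural genes above the floor, and both had fewer counts in NMP-L cells. ATOH1, the factor of dorsal interneurons, cerebellar granule cells and hair cells, had 8, 13 and 13 counts in hESCs and 2, 4 and 0 in NMP-L cells (0.592 ± 0.142 and 0.0935 ± 0.0954 CPM, SD, n = 3). It was 6.64-fold lower with a counting interval of 2.76 to 19.4, the libraries did not overlap, and the exact permutation test gave p = 0.1. It was under the filter, and without a filter its edgeR adjusted p was 0.0045. NHLH1 (chromosome 1, 160336861 to 160342636, plus strand), a bHLH gene of newly born neurons, had 10, 15 and 10 counts in hESCs and 2, 3 and 6 in NMP-L cells, with a log2 fold change of -1.86 (SE 0.46, 95% interval -2.87 to -0.85, edgeR adjusted p = 0.0048). NHLH1 passed the filter only through hESCs. Its promoter window was the CpG-poorest of those printed above.

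Among the LIM homeobox genes and MNX1, MNX1 had the highest log2 fold change of the 18 tested genes. It passed the filter only through NMP-L cells, where it is high, so its rank and p-value carry that selection. MNX1 (chromosome 7, 156786745 to 156803357, minus strand), also called HB9, is a motor neuron factor that also acts in the notochord and pancreas. It had 0, 5 and 0 counts in hESCs and 20, 17 and 22 in NMP-L cells, or 0.0857 ± 0.149 and 0.876 ± 0.0577 CPM (SD, n = 3). The 2 sets of libraries did not overlap, with a log2 fold change of 3.25 (SE 0.67, 95% interval 1.77 to 4.72, edgeR adjusted p = 0.0016) and a ratio of summed counts of 10.1 (counting interval 4.08 to 32.2). All hESC counts of MNX1 came from replicate 2, and without it the level in NMP-L cells was at least 5.53-fold higher, computed against 3 counts per hESC library. The node and notochord markers FOXA2 and CHRD also rose in NMP-L cells. FOXA2 had 0, 5 and 2 counts in hESCs and 473, 264 and 535 in NMP-L cells. The part of such cells in the MNX1 counts was not tested. The antisense gene MNX1-AS2 overlaps the locus.

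LHX3 and LHX4 specify motor neurons together with ISL1, and they also act in ventral interneurons. LHX4 (chromosome 1, 180199399 to 180248119, plus strand) had 41, 29 and 27 counts in hESCs and 51, 56 and 61 in NMP-L cells (1.70 ± 0.429 and 2.503 ± 0.194 CPM, SD, n = 3). The libraries did not overlap, but the log2 fold change of 0.56 (SE 0.23, 95% interval 0.06 to 1.06) had an edgeR adjusted p of 0.055, and it passed the threshold with library size only (adjusted p = 0.0314), relative to GAPDH counts (0.0038), with at least 10 counts in every library (0.0433) and without hESC replicate 1 (0.0221). LHX4 overlaps ACBD6, a gene on the other strand. LHX3 was near the floor, with 3, 8 and 6 counts in hESCs and 5, 1 and 6 in NMP-L cells (exact permutation p = 0.4).

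LHX1 and LHX5, a related pair of dorsal and ventral interneuron factors, were both modest in level. LHX5 (chromosome 12, 113899838 to 113910085, minus strand) had 32, 29 and 42 counts in hESCs and 22, 21 and 17 in NMP-L cells, a log2 fold change of -0.9997 (SE 0.27, 95% interval -1.59 to -0.41, edgeR adjusted p = 0.0081), though relative to GAPDH counts it was -0.45 with an adjusted p of 0.121. LHX1, which also acts in early mesoderm, had 8, 15 and 9 against 11, 5 and 14 counts, which overlapped (log2 fold change -0.32, 95% interval -1.24 to 0.59, edgeR adjusted p = 0.53). LMX1B, a factor of dorsal interneurons and serotonergic neurons, was the steadiest gene of the group, with 57, 74 and 68 counts in hESCs and 77, 68 and 84 in NMP-L cells. Its log2 fold change of -0.03 had a 95% interval of -0.40 to 0.35 (edgeR adjusted p = 0.91), and relative to GAPDH counts it was 0.54 (adjusted p = 0.0194). Its relative LMX1A, of the roof plate and midbrain dopaminergic neurons, had 0, 1 and 0 counts in hESCs and 2, 1 and 3 in NMP-L cells.

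Of the POU homeobox genes, POU3F1 carried nearly all of the signal and was lower in NMP-L cells. POU3F1 (OCT6; chromosome 1, 38509501 to 38512465, minus strand), which is known from the late epiblast as well as from Schwann cells, had 264, 250 and 326 counts in hESCs and 181, 163 and 161 in NMP-L cells. This was 10.3 ± 1.59 TPM against 5.65 ± 0.368 TPM (SD, n = 3), with a log2 fold change of -0.96 (SE 0.14, 95% interval -1.26 to -0.66, edgeR adjusted p = 1.2e-04). It held at least 94.6% of the summed TPM of the 4 POU genes in every library. POU3F2, a factor of cortical neurons, had 3, 4 and 4 against 4, 3 and 2 counts (exact permutation p = 0.2), and POU4F1, a factor of sensory neurons, had 5, 10 and 8 against 9, 4 and 7 counts (exact permutation p = 0.4). POU3F3 was at 0 in hESCs and had 1, 0 and 3 counts in NMP-L cells.

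All 4 early neuron genes were tested, and 2 of them were lower in NMP-L cells. TUBB3 (chromosome 16, 89987800 to 90005169, plus strand), the neuronal β-tubulin, held 71.1% to 74.5% of the summed TPM of all 39 genes in hESCs and 64.5% to 69.4% in NMP-L cells. Its counts were 3955, 4834 and 4394 in hESCs and 3118, 2767 and 2758 in NMP-L cells, or 273 ± 17.0 and 164 ± 10.98 TPM (SD, n = 3). The log2 fold change was -0.83 (SE 0.09, 95% interval -1.04 to -0.63, edgeR adjusted p = 1.8e-05). TUBB3 shares bases with another annotated gene on its own strand, and its counts were fractional. ELAVL3 (chromosome 19, 11562141 to 11591861, minus strand), an RNA-binding protein of neurons, fell further. It had 169, 175 and 182 counts in hESCs and 49, 64 and 57 in NMP-L cells (3.99 TPM and 1.19 TPM on average), a log2 fold change of -1.85 (SE 0.16, 95% interval -2.19 to -1.51, edgeR adjusted p = 1.7e-06).

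Its close relative ELAVL4 was low, with 8, 11 and 8 counts in hESCs and 13, 11 and 9 in NMP-L cells (log2 fold change 0.06, 95% interval -0.73 to 0.86, edgeR adjusted p = 0.90). The ratio of ELAVL3 to ELAVL4 within a library fell by 1.88 on the log2 CPM scale (exact permutation p = 0.1). DCX, the microtubule-associated protein of migrating neurons, had 497, 373 and 483 counts in hESCs and 467, 390 and 507 in NMP-L cells, which overlapped. Its log2 fold change was -0.22 (95% interval -0.51 to 0.06, edgeR adjusted p = 0.17), but -0.36 with an adjusted p of 0.0258 without hESC replicate 2. Relative to HPRT1 counts it was -0.52 (adjusted p = 0.0301) and relative to GAPDH counts it turned to 0.34 (adjusted p = 0.0913).

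**Figure D4:**
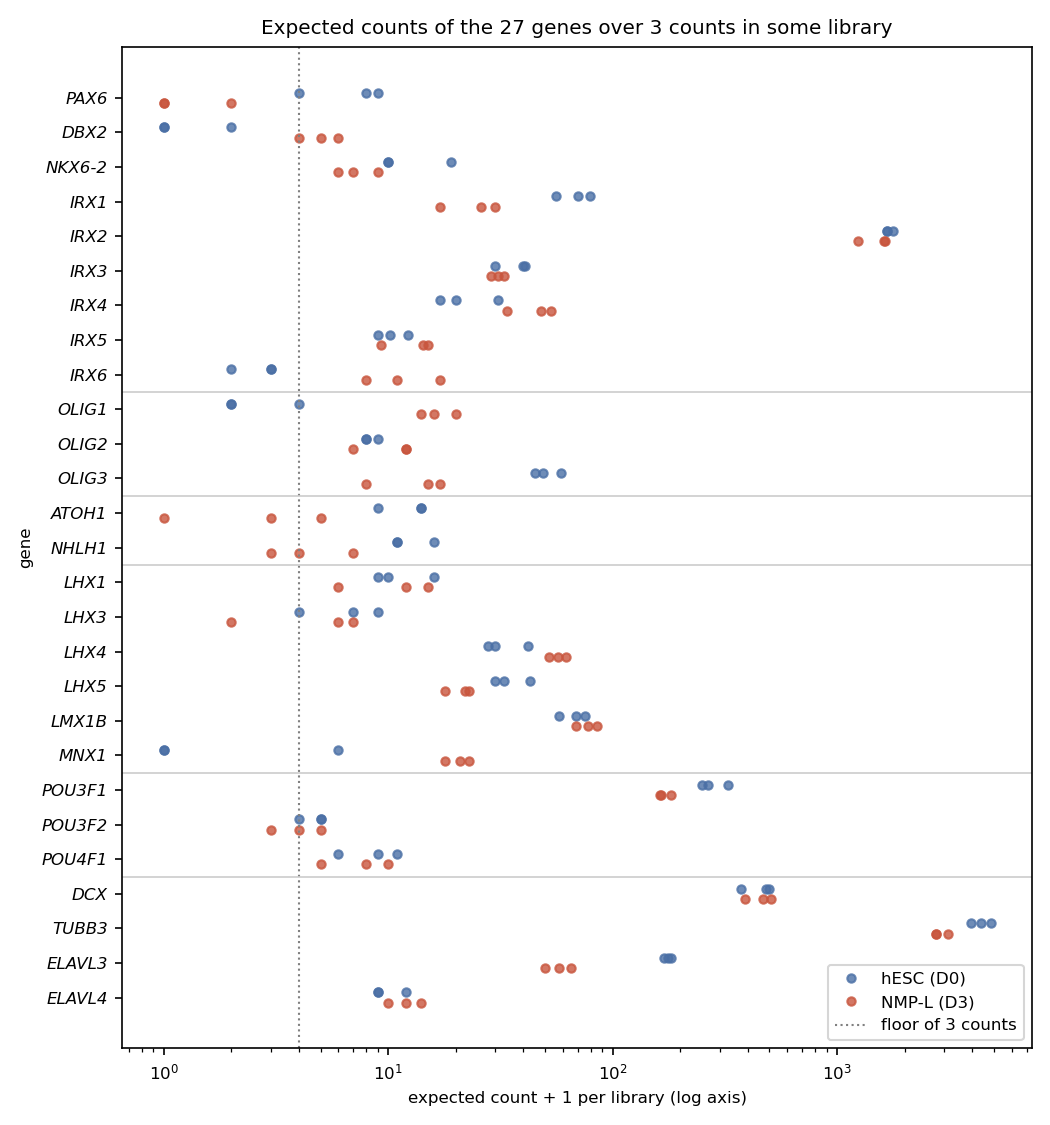
Each point is the expected count plus 1 of a gene in a library, on a log axis, for the 27 genes above 3 counts in some library, with hESCs and NMP-L cells in different colours and role groups divided by lines. The dotted line marks the floor of 3 counts, and TUBB3 and IRX2 lie furthest to the right, with at least 1243 counts in each library.

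Genes that work beside these factors were counted from lists of the same pathway. Of 50 other neural subtype factors, 21 had at most 3 counts in all 6 libraries and 13 were tested, with 4 higher and 5 lower and a median log2 fold change of 0.15. EVX1, a factor of ventral interneurons that is also expressed in the primitive streak, had 0 counts in all hESC libraries and 65, 43 and 71 in NMP-L cells, at least 16.8-fold higher against 3 counts per hESC library. ONECUT1 and ONECUT2, CUT homeobox factors of early motor neurons and interneurons, were lower (log2 fold changes -2.42 and -1.92), and so was BHLHE23, a bHLH relative of the OLIG genes, with 17, 13 and 19 counts in hESCs and 2, 1 and 0 in NMP-L cells.

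Of 13 partners and opponents of the proneural bHLH proteins, 12 were tested, with 6 higher and 4 lower. HES5, a Notch target that represses proneural genes, had 2, 6 and 2 counts in hESCs and 35, 23 and 24 in NMP-L cells (log2 fold change 2.77). The ID proteins, which bind E proteins away from proneural factors, diverged. ID1 fell (log2 fold change -2.74) and ID2 rose (1.04). Of 9 LIM cofactors, 8 were tested, with 3 higher, LMO3 furthest (log2 fold change 2.96), and 1 lower. The 7 Groucho and REST corepressors gave 3 lower and none higher, TLE2 furthest among them at -1.73.

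Of 32 other neuron genes, 25 were tested, with 5 higher and 14 lower and a median log2 fold change of -0.49. STMN2, a microtubule regulator of growing axons, had 25, 32 and 38 counts in hESCs and 3, 7 and 7 in NMP-L cells (log2 fold change -2.68). The enzymes of GABA synthesis moved in opposite directions. GAD1 had 3, 11 and 2 counts in hESCs and 512, 432 and 549 in NMP-L cells (log2 fold change 6.28), whereas GAD2 had 20, 15 and 12 against 3, 4 and 2 counts (log2 fold change -2.56). These lists are described by their counts beside the 55.8% of all genes tested that passed, and all fold changes in this and the preceding list descriptions had an edgeR adjusted p under 0.05. EVX1, HES5 and LMO3, and the markers T and FOXA2, passed the filter on low counts only through NMP-L cells, and BHLHE23, STMN2 and GAD2 only through hESCs. Of the hESC libraries, only replicate 2 reached the filter for GAD1.

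**Figure D5:**
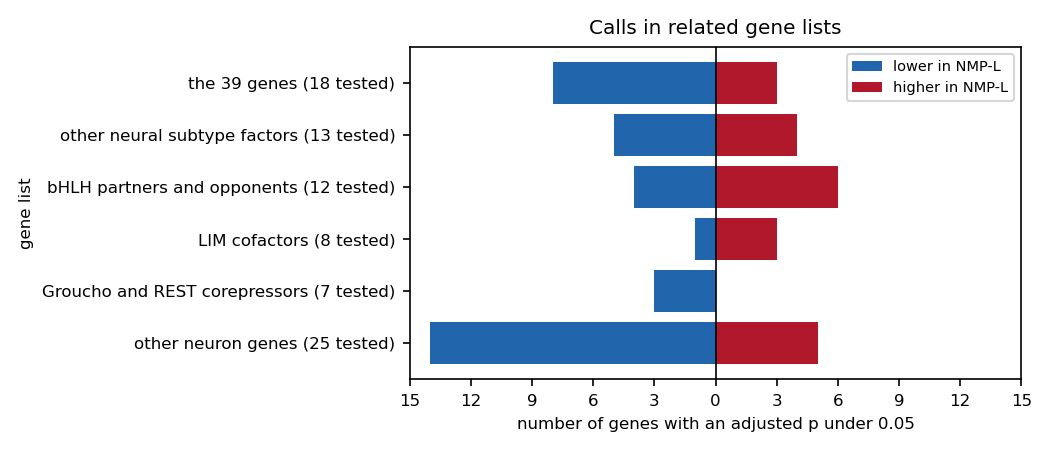
Bars to the left and right give the number of genes with an adjusted p under 0.05 that were lower and higher in NMP-L cells, for the 39 genes and 5 lists of related genes, with the number tested beside each name. The 39 genes have 8 lower and 3 higher of 18 tested, and the other neuron genes 14 lower and 5 higher of 25 tested.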

How the data were processed

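Polyadenylated RNA of 3 hESC and 3 NMP-L libraries was read from one end, 76 bp per read. The authors deposited expected counts from RSEM for each gene, not normalized between libraries, and in the same table TPM values, scaled by transcript length to 1000000 per library. The submitters' processing notes name cutadapt 1.9.1, STAR 2.5.2a, RSEM 1.3.0, DESeq2 1.12.3 and hg19. The annotation and strand setting are not given in the sources used here. All per-sample columns were used (0 left out).

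Counts were rounded to whole numbers, filtered with edgeR's filterByExpr (minimum count 10; 15517 genes kept), scaled by TMM and compared by glmQLFTest after glmQLFit, in R 4.3.3 with edgeR 4.0.16 (limma 3.58.1), adjusted over all genes tested. The SE is the log2 fold change divided by the square root of F. Exact permutation tests used log2(CPM + 0.1), with TMM-scaled CPM. Low genes were compared by summed counts with exact Clopper-Pearson 95% intervals, which cover counting error only, as does the floor of 3 counts. PCR duplicates cannot be told from separate molecules. The labels call the replicates biological without naming separate cultures, so p-values measure the spread between these libraries.

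The members and lists were chosen with earlier results of these data known. All 39 genes were reported. Of the related lists, up to 5 genes were named each, those with the largest change of at least 2-fold past the threshold, and FOXA2, CHRD and T were named as markers. Gene coordinates are from GENCODE release 44 on GRCh37.

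Alternatives were RLE and upper-quartile scaling, library size only, GAPDH or HPRT1 counts, DESeq2 1.42.0, both filters, the replicate block and each library left out. Thinning to the smallest total was added after seeing the data. Same-numbered libraries did not deviate together (r = -0.37, -0.06 and -0.13), so the numbers were not treated as pairs. In a simulation of this comparison with 15517 genes, edgeR made 10 false calls. It recovered 83 of 100 genes changed 2-fold and 98 of 100 changed 4-fold. The changed genes were drawn from all genes tested, with a median of 14.3 TPM, and were far fewer than the 55.8% called here. These rates therefore do not give the recovery among the 18 tested genes, which had a median of 1.49 TPM. Python 3.11.15, scipy 1.17.1 and matplotlib 3.10.9 were used for the other steps.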

Additional observations from a re-analysis of the deposited data

How the results depend on the processing

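Of 262 values recomputed for the 18 tested genes under the alternatives, 231 kept their direction and their side of the threshold, 9 lost and 7 gained the threshold and 15 changed sign, and 8 of the genes stayed the same in every setting. Relative to GAPDH counts the numbers of all genes called higher and lower were 10027 and 1428, and relative to HPRT1 counts 1793 were higher. Of the 39 genes, 5 were higher relative to GAPDH counts and 5 with no filter (37 tested, 15 called, with 43.3% of all genes called). The LIM cofactors gave 7 calls relative to GAPDH and 2 relative to HPRT1 (4 in the reported fit), the Groucho and REST corepressors 5 relative to GAPDH (3), and the other neural subtype factors 5 with at least 10 counts in every library (9). A floor of 1 count left 4 of the 39 genes at or under it in all libraries, a floor of 10 counts 17, a TPM of 0.1 8 and thinned counts 12. The fold changes of all genes shifted by a median of 0.56 relative to GAPDH counts and of -0.30 relative to HPRT1 counts. The stricter filter tested fewer genes. The cause of these changes in the number of calls was not tested.

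Signs changed relative to GAPDH counts for IRX2 (0.15), IRX3 (0.071), LHX1 (0.23), LMX1B (0.54) and DCX (0.34), relative to HPRT1 counts for IRX5 (-0.21) and ELAVL4 (-0.22), and with library size only for LMX1B (0.048). With 1 library left out, 3 genes changed sign in some fit, with ranges of -0.063 to 0.26 for IRX5, -0.14 to 0.042 for LMX1B and -0.071 to 0.24 for ELAVL4. Over these 6 fits 11 to 12 of the 39 genes were called.

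With the replicate number as a block, 7560 genes and 10 of the 39 were called. IRX4 lost its call, and the other 10 of the 11 genes kept theirs. The labels share only the numbers, so this is no paired design. Depth limits all genes near the floor, and with 3 libraries per condition no permutation test can go below p = 0.1.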
